A study of Rattus norvegicus with 12 samples.

Results

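The genes described here encode the protein parts of plasma lipoproteins and the transfer protein that loads them with lipid: Apoa1, Apoa2, Apoa4, Apoa5, Apob, Apoc1, Apoc3, Apoe, Apom and Mttp. They were chosen by name, 10 of the 14217 genes named on the array, and all of their probe sets with a single gene symbol were taken, 12 of 31042. Each of the 12 Affymetrix arrays held liver RNA from 1 male Wistar rat, an outbred laboratory strain, with a labelled age of 5 weeks. In 6 rats, the AIN93G purified diet contained 20% maple syrup. The other 6 ate the same diet with a 20% sugar mix syrup in its place. Both syrups were given for 11 days, after 4 days on the plain AIN93G diet, and both groups fasted for 16 hours before the livers were taken. Fed groups of 7 (maple syrup) and 8 (sugar mix) are named in the labels, and the 6 rats of each with an array were analysed here. The question the design puts to these genes is whether maple syrup changed their liver expression beyond what its sugars did.

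Lipoproteins carry fat and cholesterol through the blood in particles whose surface proteins, the apolipoproteins, hold the particle together and steer it to enzymes and receptors. The liver builds very low density lipoprotein around apolipoprotein B: the microsomal triglyceride transfer protein, made of the Mttp product and protein disulphide isomerase, adds lipid to the growing chain in the endoplasmic reticulum. The liver also secretes the proteins of high density lipoprotein and the small exchangeable proteins that speed or slow the lipolysis and uptake of particles.

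The deposited value is a score that resembles a log2 intensity in level but not in its differences, which were very small: over the 12 arrays, probe sets had a median SD of 7.13e-06. A difference in this score is therefore no log2 ratio, and no fold is given. Values of each animal are stated as its distance from the mean of the gene over the 12 livers, in SDs of that gene. Diet differences are given as Hedges' g with its 95% interval: the maple syrup mean minus the sugar mix mean, divided by the SD between animals of a diet. The labels call the arrays biological replicates and give no batch. The liver label fitted the markers: 9 of 10 hepatocyte markers were measured, at levels between 11.35 and 15.21, and Alb, which encodes albumin, had the highest level of all genes. Array medians lay at 7.364 to 7.365.

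All 10 genes stood among the 287 brightest on the array. Apoe, the ligand by which remnant particles are taken up, ranked 4 of 14217 genes with a mean score of 14.77. Apoc3, an inhibitor of lipoprotein lipase and of remnant uptake, ranked 11 at 14.56, and Apob ranked 15 at 14.46. Apoa1, the main protein of high density lipoprotein, ranked 23 at 14.39, and Apoa2, its companion on the same particles, ranked 26 at 14.24. Apoc1, a small exchangeable protein of triglyceride-rich particles and high density lipoprotein, ranked 39 at 14.11. Apoa5, which promotes the clearance of triglyceride, ranked 63 at 13.77. Thus 7 of the 10 genes lay among the 100 brightest. Apoa4, an apolipoprotein that rodents make in intestine and liver, ranked 131 at 13.25. Mttp ranked 238 at 12.64, and Apom, a lipocalin of high density lipoprotein that carries sphingosine phosphate, ranked 287 at 12.44. These ranks compare probe sets with different probes, so they order scores and not amounts of transcript. The order was the same in all 12 livers: the smallest gap between neighbouring means was 0.0741, against a largest range over animals of 0.000634, in Apoa4.

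Apob and Apoe each had a second probe set at a far lower level. That of Apob lay at 7.97 and ranked 10697 of 31042 probe sets. That of Apoe lay at 7.30 and ranked 16232, below the array medians. Over the 12 livers, the second Apob probe set did not follow the first (Pearson's r = -0.10, Spearman's rho = -0.13). For Apoe the corresponding values were r = 0.63 and rho = 0.63. These correlations within a gene are given as descriptions. The brighter probe set is used below unless stated.

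**Figure D1:**
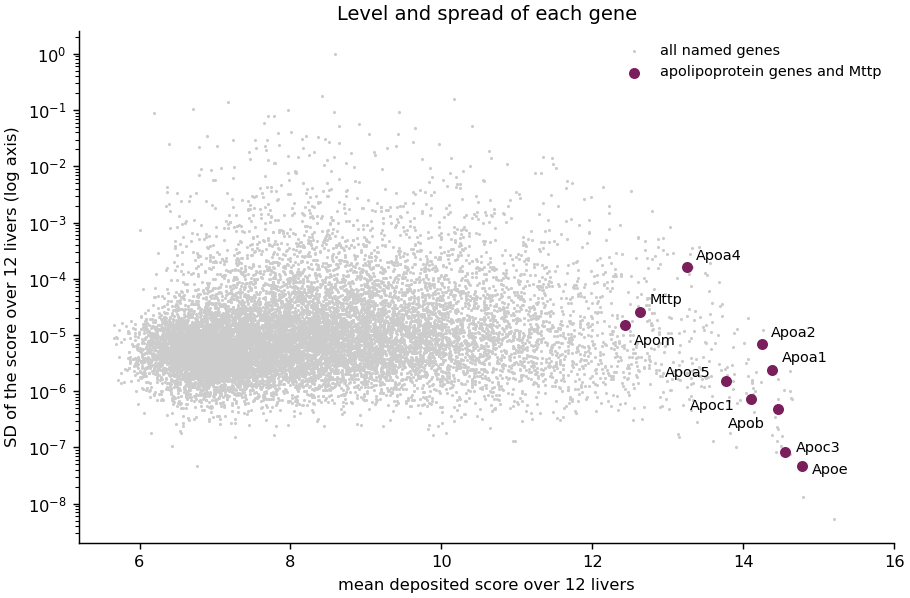
Mean deposited score of each of 14217 named genes over the 12 livers (horizontal) against its SD over the same livers (vertical, log axis); grey points are all genes and dark points the 10 genes described here. Apoe and Apoc3, at 14.77 and 14.56, have almost the smallest SDs of all genes, while Apoa4 at 13.25 has an SD of 0.000162.

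As a ratio, the SD between animals differed far more between these genes than their levels did: the widest SD was 3526 times the narrowest. In units of the score, every SD was far smaller than the gaps between the levels. Apoa4 had the widest SD, 0.000162, and ranked 939 of 14217 genes in spread. Mttp followed at 2.61e-05 (rank 2914), then Apom at 1.49e-05 (rank 4307), Apoa2 at 6.78e-06 (rank 7498) and Apoa1 at 2.42e-06 (rank 11902). Apoa5, Apoc1 and Apob had SDs of 1.52e-06, 7.25e-07 and 4.72e-07. Apoc3 and Apoe stood almost at the bottom of the table, with SDs of 8.35e-08 (rank 14211) and 4.58e-08 (rank 14214). Bright genes as a whole had narrow spread: the 46 genes above a level of 14 had a median SD of 7.43e-07, against 7.35e-06 over all genes. Among the 426 genes above a level of 12, the SD of 6 of the 10 genes was below the median of 4.71e-06. Apoa4 stood 37 of these 426 in spread. The values are given to 8 decimals, and the 12 livers took only 9 distinct values in Apoe and 9 in Apoc3. Distances between animals in these genes are therefore coarse.

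No gene of the set passed the test between the diets. For most apolipoprotein genes the diet means lay close together, and Mttp had the g farthest from 0, with lower values for maple syrup in most pairs of animals. In limma, 0 of the 12 probe sets had a Benjamini-Hochberg adjusted p of 0.05 or less over all 31042 probe sets, where 0% of all probe sets did. At an unadjusted p of 0.05 the count was 1 of 12, Mttp, where 4.07% of all probe sets were counted (2.15% lower with maple syrup), so the share is read from a single gene. The 2 diets overlapped in all 12 probe sets; 0.106% of all probe sets did not overlap. Every one of the 12 had a limma adjusted p of 0.9998. Of the 10 genes, 4 had g above 0 and 6 below, with a median g of -0.11, against a median of -0.039 over all genes. After median centring of the arrays, the moderated t was above 0 in 9 of the 10 and below in 1. Of all genes, 92.9% had a t above 0 after this centring, against 47.1% before it. In 7 of the 10 genes g lay within 0.2 of 0. With 6 animals per diet the 95% intervals were wide, and none of these small values shows that the diets act alike on the gene.

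**Figure D2:**
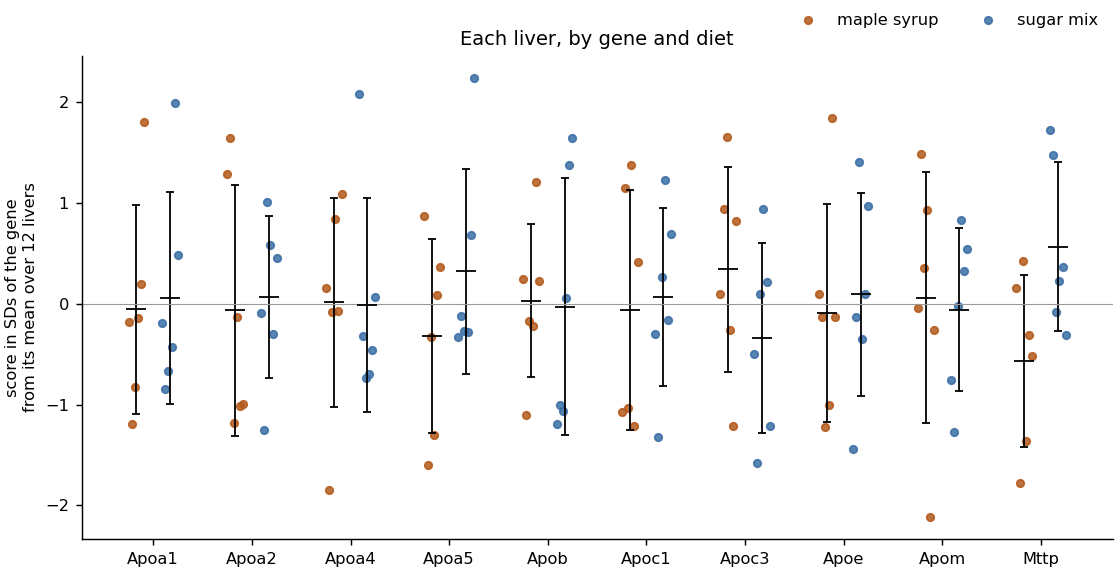
Score of each liver in SDs of the gene from its mean over the 12 livers, for the 10 genes (horizontal), with maple syrup left of sugar mix; points are single animals, the dash is the diet mean and the bar ± 1 SD (n = 6 each). The diets overlap in every gene, and Mttp has the widest gap between its diet means, -0.57 with maple syrup and 0.57 with sugar mix.

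Mttp, the lipid-loading subunit, stood at 0.15, -1.78, 0.42, -1.36, -0.31 and -0.52 SDs in maple syrup replicates 1 to 6, against 1.73, 1.47, -0.08, 0.23, 0.37 and -0.31 SDs in sugar mix replicates 1 to 6. The 2 lowest livers were from rats fed maple syrup and the 2 highest from rats fed the sugar mix, while the remaining 8 were mixed. Setting each maple syrup animal against each sugar mix animal, the maple syrup value was higher in 6 of 36 pairs. The diet means were -0.57 ± 0.85 SDs with maple syrup and 0.57 ± 0.84 SDs with sugar mix (SD, n = 6 each), and g was -1.24 (95% interval -2.38 to -0.038). The exact permutation test of this difference gave a two-sided p of 0.0476, where 0.00216 is the smallest the design allows. In limma the unadjusted p was 0.0360 and the adjusted p 0.9998. Of all genes, 3.59% had a g at least as far from 0 as that of Mttp. Leaving out 1 animal in turn, the unadjusted limma p of Mttp ran from 0.0196 to 0.0785. It was above 0.05 in 5 of 12 cases, without maple syrup replicates 2, 4 or 6 or sugar mix replicates 1 or 2. After median centring of the arrays the moderated t of Mttp was -0.29, in place of -2.40, and 92.9% of all genes had a t above 0, in place of 47.1%.

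Apob, the scaffold that Mttp loads, showed no such gap. It ran from -1.11 over a median of 0.026 to 1.20 SDs with maple syrup, and from -1.19 over a median of -0.47 to 1.65 SDs with sugar mix. Its g was 0.053 (95% interval -0.99 to 1.10), and the second Apob probe set gave 0.36 (95% interval -0.71 to 1.41). The maple syrup animal was higher in 19 and 21 of the 36 pairs in these probe sets.

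Among the proteins of high density lipoprotein, Apoa1 ran from -1.19 over a median of -0.16 to 1.80 SDs with maple syrup, and from -0.85 over -0.31 to 1.99 SDs with sugar mix. In both diets a single liver stood high, maple syrup replicate 6 and sugar mix replicate 5. The g of Apoa1 was -0.10 (95% interval -1.14 to 0.95), with 18 of 36 pairs higher. Apoa2 ran from -1.18 over -0.56 to 1.64 SDs with maple syrup, and from -1.25 over 0.18 to 1.01 SDs with sugar mix, with g = -0.12 (95% interval -1.16 to 0.93). Its maple syrup livers were split, with replicates 1 and 2 well above the other 4. Apom ran from -2.11 over 0.16 to 1.48 SDs with maple syrup, and from -1.28 over 0.15 to 0.83 SDs with sugar mix. Its g was 0.10 (95% interval -0.94 to 1.15), and both its lowest and its highest liver were from rats fed maple syrup.

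The regulators of triglyceride clearance had the next largest values of g. Apoc3, the brake on lipolysis, ran from -1.22 over 0.46 to 1.66 SDs with maple syrup, and from -1.58 over -0.20 to 0.94 SDs with sugar mix. Its g was 0.64 (95% interval -0.46 to 1.70), with 23 of 36 pairs higher and an exact permutation p of 0.268. The limma p of Apoc3 was 0.667, since limma moves the variance of each gene toward a trend over all genes and that of Apoc3 is very small. Apoa5, which has the opposite action on clearance, ran from -1.60 over -0.12 to 0.87 SDs with maple syrup, and from -0.33 over -0.20 to 2.24 SDs with sugar mix. Its g was -0.60 (95% interval -1.66 to 0.49), with 13 of 36 pairs higher and an exact permutation p of 0.299. The intervals of both genes include 0, so neither direction was established. Without sugar mix replicate 6, the highest liver, the moderated t of Apoa5 was -0.54 in place of -1.12.

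Apoc1 ran from -1.21 over -0.31 to 1.38 SDs with maple syrup, and from -1.32 over 0.048 to 1.23 SDs with sugar mix, with g = -0.11 (95% interval -1.16 to 0.93). Apoe ran from -1.22 over -0.13 to 1.84 SDs with maple syrup, and from -1.44 over -0.018 to 1.40 SDs with sugar mix. Its g was -0.16 (95% interval -1.20 to 0.89), and the second, dim probe set gave -0.49 (95% interval -1.54 to 0.59). Macrophages also make apolipoprotein E. Of 10 measured Kupffer cell and macrophage markers, 0 passed in limma, 2 had g above 0 and 8 below, with a median g of -0.61. Their mean, in SDs, ran from -1.43 to 0.70 in maple syrup livers and from -0.31 to 0.85 in sugar mix livers. Their part in the values of Apoe was not tested.

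Apoa4 ran from -1.85 over 0.039 to 1.09 SDs with maple syrup, and from -0.74 over -0.39 to 2.08 SDs with sugar mix. Its g was 0.023 (95% interval -1.02 to 1.07), with 23 of 36 pairs higher. The highest liver, sugar mix replicate 1, stood apart from the other 5 of its diet, of which the next lay at 0.06 SDs. Without it the moderated t was 0.95 in place of 0.05, again with no call. Apoa4, Apob and Mttp are among the genes of the set that are also expressed in intestinal epithelium. Of 6 measured enterocyte markers, 3 had g above 0 and 3 below. The brightest was Fabp2, which encodes the intestinal fatty acid binding protein, at 8.95, above the array medians. The others lay between 6.71 and 7.43, around the array medians. Fabp2 had g = -0.92 (95% interval -2.01 to 0.22). Over the 12 livers Fabp2 had rho = 0.75 with Mttp, given as a description. The other measured enterocyte markers had lower values with Mttp, from rho = -0.22 (Alpi) to 0.36 (Rbp2). The mean of the list ran from -0.30 to 0.13 SDs in maple syrup livers and from -0.95 to 0.91 SDs in sugar mix livers. The part of enterocyte transcripts in the values of the genes described here was not tested.

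Over the 12 livers, the pairs of genes with the highest rank correlations were not direct neighbours on a chromosome. In the RefSeq gene table, Apoa1, Apoc3, Apoa4 and Apoa5 follow each other on chromosome 8, and Apoc1 and Apoe are neighbours on chromosome 1. The rank correlations of these adjoining genes were weak: rho was -0.20 for Apoa1 and Apoc3, -0.35 for Apoc3 and Apoa4, 0.20 for Apoa4 and Apoa5 and -0.23 for Apoc1 and Apoe, with permutation p from 0.262 to 0.536. Farther apart in the chromosome 8 cluster, Apoa1 and Apoa5 had rho = 0.648 (permutation p = 0.0255, adjusted 0.230) and Apoa1 and Apoa4 rho = 0.50 (permutation p = 0.0985, adjusted 0.428). The strongest pair, Apoc1 and Apom, lies on different chromosomes, 1 and 20.

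Apoc1 and Apom had rho = 0.83 (permutation p = 0.00152) and r = 0.76 (permutation p = 0.00295) over the 12 animals. Without the 2 animals farthest from the median of Apoc1, r was 0.68. Within the diets r was 0.70 with maple syrup and 0.92 with sugar mix. Apom ranked 13 of 14216 genes in its rho with Apoc1, and Apoc1 ranked 15 in its rho with Apom. Maple syrup replicates 2 and 4 and sugar mix replicate 4 were high in both genes, while maple syrup replicate 5 and sugar mix replicate 2 were low in both.

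The next highest values were those of Apob with Apoa5 and with Apoa1. For Apoa5 and Apob, rho was 0.81 (permutation p = 0.00214) and r was 0.72 (permutation p = 0.0067). Without the 2 animals farthest from the median of Apoa5, r was 0.50, and within the diets it was 0.71 with maple syrup and 0.84 with sugar mix. For Apoa1 and Apob, which did not pass over the pairs of the set (adjusted permutation p = 0.102), rho was 0.75 (permutation p = 0.00682) and r was 0.67 (permutation p = 0.0165). Without the 2 animals farthest from the median of Apoa1, r was 0.79, and within the diets it was 0.53 with maple syrup and 0.79 with sugar mix. Sugar mix replicates 5 and 6 were high in all 3 genes and maple syrup replicate 2 was low in all 3.

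These pairs were read from 45. Adjusted over the 45 pairs, Spearman's rho passed at 0.05 in 2, Apoc1 with Apom and Apoa5 with Apob (adjusted permutation p = 0.0481 for each), and Pearson's r in 0. Adjusted over the correlations with all 14216 other genes, 0 pairs passed, and the permutation p of the same pairs became 0.514 and 0.322. The median absolute rho over the 45 pairs was 0.30, against 0.23 over all pairs of named genes, and 4 of the 45 had an absolute rho of at least 0.65, where 3.57% of all gene pairs did. All members share the arrays and their scaling. In the second Apob probe set, the rho was -0.025 with Apoa5 and 0.20 with Apoa1. After median centring 28 pairs passed, but not Apoc1 with Apom (rho = 0.58, adjusted permutation p = 0.0737); the array medians it subtracts spanned 0.000169, more than the SD of each of the 10 genes.

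**Figure D3:**
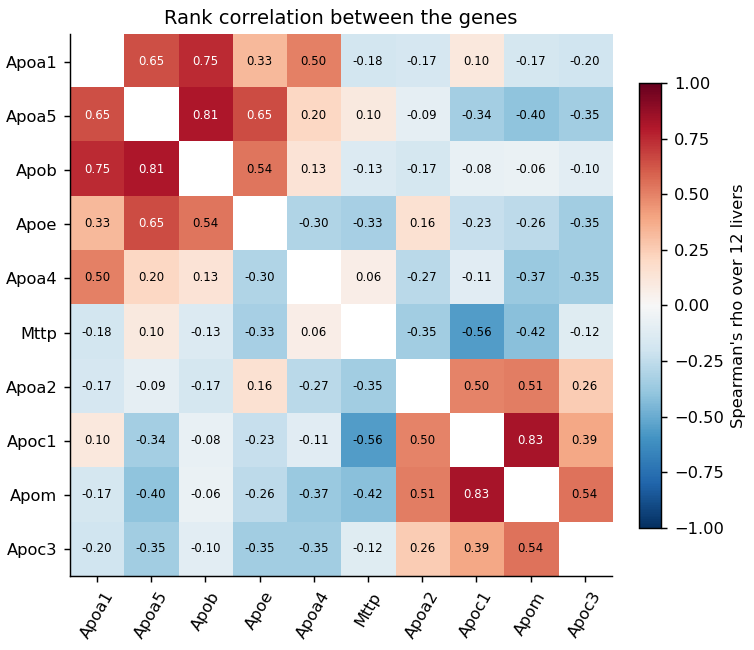
Spearman's rho between the scores of each pair of the 10 genes over the 12 livers, from -1 (blue) to 1 (red), with genes ordered by hand. Apoa1, Apoa5 and Apob stand together, with rho of 0.648 to 0.81, and so do Apoc1 and Apom, with rho = 0.83. Apoe has rho of 0.65 with Apoa5, 0.54 with Apob and 0.33 with Apoa1.

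Mttp ran against Apoc1 in both diets. Over the 12 animals rho was -0.56 (permutation p = 0.0615) and r was -0.62 (permutation p = 0.0302), neither of which passed over the 45 pairs (adjusted p = 0.427 and 0.315). Within the diets r was -0.90 with maple syrup and -0.73 with sugar mix, and on deviations from the diet means it was -0.82. Without the 2 animals farthest from the median of Apoc1, sugar mix replicate 2 and maple syrup replicate 4, r was -0.42, so the relation rests in part on those animals. After median centring r was 0.89, the other sign. Mttp and Apob, whose products act together, had rho = -0.13.

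**Figure D4:**
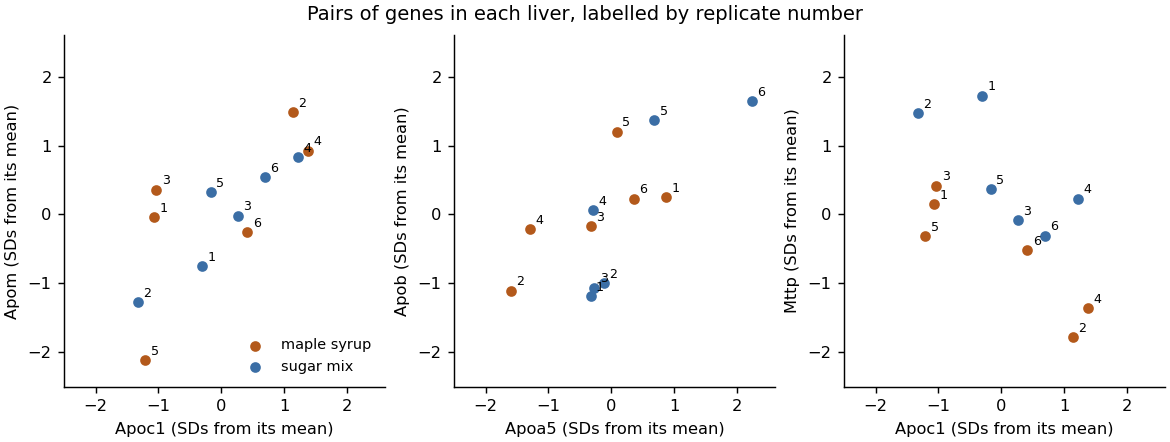
Scores of the 12 livers in SDs from the mean of the gene, for Apoc1 and Apom (left), Apoa5 and Apob (middle) and Apoc1 and Mttp (right); colours are the diets and numbers the replicates. The points climb together in the first panels, with rho of 0.83 and 0.81, and fall in the last, with rho = -0.56.

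Promoter sequence is shown for the pair that varied most closely together, Apoc1 and Apom, for Apoa5, the partner of Apob, and for Apoa4, the gene with the widest spread. RefSeq promoter entries on the GRCr8 build were matched for 5 of the 10 genes by symbol. Each line gives the 150 bases before the first start listed for the gene, 5′ to 3′ on the strand of the gene. Capitals mark every match, on either strand, to the nuclear receptor hexamers AGGTCA and GGGTCA, to the element AAAGTCCA, which resembles sites of hepatocyte nuclear factor 4, to the E box CACGTG and to the TATA box TATAAA. The matches did not overlap.
Apoc1, minus strand, chr1:88478306-88478455: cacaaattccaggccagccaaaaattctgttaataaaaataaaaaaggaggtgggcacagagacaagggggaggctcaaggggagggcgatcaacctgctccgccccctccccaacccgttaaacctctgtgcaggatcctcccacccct
Apom, plus strand, chr20:3695468-3695617: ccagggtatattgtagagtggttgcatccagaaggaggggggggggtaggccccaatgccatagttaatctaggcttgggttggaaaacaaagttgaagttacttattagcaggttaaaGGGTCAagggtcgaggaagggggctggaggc
Apoa5, plus strand, chr8:55457721-55457870: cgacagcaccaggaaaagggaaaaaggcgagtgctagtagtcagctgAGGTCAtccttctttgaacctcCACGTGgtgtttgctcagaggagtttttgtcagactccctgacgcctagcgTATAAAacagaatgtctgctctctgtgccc
Apoa4, plus strand, chr8:55435629-55435778: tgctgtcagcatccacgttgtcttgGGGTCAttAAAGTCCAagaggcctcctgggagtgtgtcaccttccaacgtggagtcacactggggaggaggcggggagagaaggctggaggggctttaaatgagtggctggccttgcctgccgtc

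Apom and Apoa4 held GGGTCA, which 7.03% of 27457 promoters held in the same window. Apoa5 held AGGTCA (8.49% of promoters), CACGTG (3.93%) and TATAAA (8.16%), and Apoa4 held AAAGTCCA (0.645%). The windows of Apoc1 and Apom shared none of the 5 motifs, since that of Apoc1 matched none. A match is a description of letters in this window.

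The genes outside this set whose scores ranked the livers most like a member were read for the 3 members of widest spread, over all 12 livers and with no test. For Apoa4 they were Trmt112 (rho = 0.92, r = 0.83), Sec63 (rho = 0.90, r = 0.88) and Clptm1l (rho = 0.86, r = 0.84). For Mttp they were Dab1 (rho = 0.94, r = 0.86), Arpp19 (rho = 0.93, r = 0.88) and Smco4 (rho = 0.91, r = 0.92). For Apom they were Hoga1 (rho = 0.93, r = 0.82), Vipr2 (rho = 0.92, r = 0.89) and Cfap299 (rho = 0.92, r = 0.83). These are the extremes of 14216 genes.

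The other genes of lipoprotein metabolism were read from 5 lists, and 0 of their members passed in limma over all probe sets. In lipoprotein assembly and export, 17 of 20 genes were measured: 12 had g below 0 and 5 above, with a median g of -0.50, against -0.039 over all genes. P4hb, which encodes the disulphide isomerase that pairs with Mttp in the transfer protein, had the g farthest from 0 of this list, -1.64 (95% interval -2.88 to -0.35). The maple syrup animal was higher in 2 of 36 pairs for P4hb, with an exact permutation p of 0.00866 and an adjusted p of 0.9998 in limma. Genes named from a list for a large g, P4hb among them, were picked by these same values. Their intervals and unadjusted p-values are therefore descriptions. It was the 1 gene of this list with an unadjusted limma p under 0.05, where 4.16% of all genes have one. Sec24c, a coat protein of vesicles that leave the endoplasmic reticulum, had g = -0.83, and the chaperone gene Hspa5, the brightest of the list at 13.31, had g = -0.52. The counts of this list moved with the scaling, as did those of all genes. After median centring, 13 of 17 had a moderated t above 0, where 92.9% of all genes did. Before it, 5 of 17 did, where 47.1% of all genes did. The moderated t of P4hb was -0.12 after median centring, in place of -3.19.

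**Figure D5:**
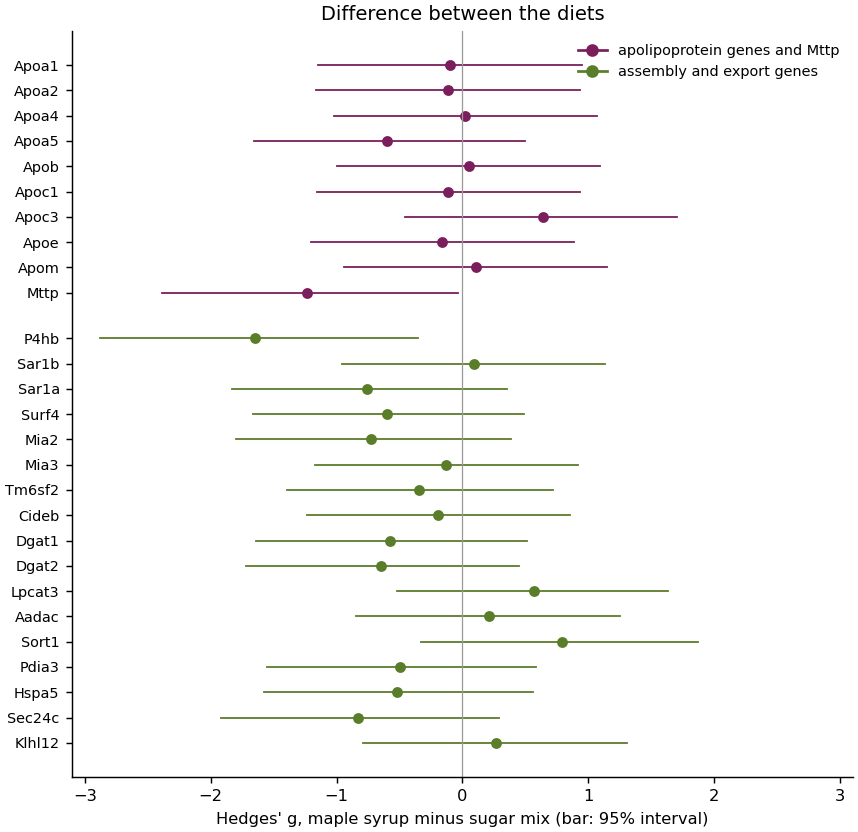
Hedges' g for maple syrup minus sugar mix with its 95% interval, for the 10 genes (top) and the 17 measured genes of lipoprotein assembly and export (bottom), 6 animals per diet. The intervals of Mttp (-2.38 to -0.038) and P4hb (-2.88 to -0.35) lie below 0, and no gene passed the limma test over all probe sets. P4hb has the g farthest from 0 of its list and was named for it.

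Among 11 other apolipoprotein and related genes, 6 had g above 0 and 5 below, with a median of 0.12. Apool, which despite its name encodes a protein of the inner mitochondrial membrane, had g = 1.21 (95% interval 0.02 to 2.35). Its exact permutation p of 0.0563 and its unadjusted limma p of 0.0723 were both above 0.05. After median centring its moderated t was 0.83, in place of 1.99. Apoc2, the cofactor that activates lipoprotein lipase and the opposite of Apoc3 in this, had g = -0.82 (95% interval -1.91 to 0.30) at a level of 13.51. Apoh and Pon1, the brightest of this list, had g = 0.12 and 0.14. Of 8 receptor and uptake genes 6 had g above 0 and 2 below. Sdc1, which encodes a heparan sulphate proteoglycan that binds remnants, had g = -1.40 (95% interval -2.58 to -0.17; limma unadjusted p = 0.0203, adjusted p = 0.9998). The scavenger receptor gene Scarb1, whose product takes up cholesterol from high density lipoprotein, had g = 0.59, and Lrp1, a remnant receptor, had g = 0.49.

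Of 10 genes of plasma lipases and remodelling, 5 had g above 0 and 5 below. Lcat, the enzyme that Apoa1 activates, had g = -0.61 and Lipc, hepatic lipase, 0.21. The cholesterol exporters Abcg1 and Abca1 had g = -1.15 (95% interval -2.28 to 0.03) and 0.85 (95% interval -0.27 to 1.94). Of 21 transcriptional regulators, 12 had g above 0 and 9 below, with a median of 0.06. Hnf4a, a nuclear receptor that drives many apolipoprotein genes, had g = -0.10, and Creb3l3, a fasting-induced factor that acts on Apoa4 and Apoc2 in mice, had g = -0.32. Srebf1 had g = -1.32 (95% interval -2.49 to -0.11) and Nr1h4, the bile acid receptor, 0.92 (95% interval -0.22 to 2.02). Of the lists of receptors, remodelling and regulators, each had 1 gene with an unadjusted limma p under 0.05, Sdc1, Abcg1 and Srebf1, where 4.16% of all genes have one. After median centring the moderated t was -2.57 for Sdc1 and -2.70 for Srebf1, but -0.20 for Abcg1, in place of -2.22. The counts above and below 0 in these lists also moved with the scaling. After median centring, 10 of 11 other apolipoprotein genes, 7 of 8 receptor genes, 7 of 10 remodelling genes and 17 of 21 regulators had a t above 0, where 92.9% of all genes did.

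The remaining marker lists also had 0 genes that passed in limma. Hepatocyte markers had g above 0 in 5 of 9, sinusoidal endothelial markers in 5 of 6, stellate cell markers in 2 of 8, cholangiocyte markers in 1 of 5, pancreatic acinar markers in 4 of 7, erythroid and blood markers in 3 of 4 and adipocyte markers in 4 of 5. After median centring the t was above 0 in 8 of 9 hepatocyte, 3 of 10 Kupffer cell, 5 of 8 stellate cell and 5 of 6 enterocyte markers and in every measured marker of the other 5 lists. Of all genes, 92.9% had a t above 0 after this centring and 47.1% before it. In bulk tissue, fewer cells of a type and less RNA per cell cannot be told apart.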

How the data were processed

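Per the labels' protocols, 2 ug of liver RNA from each of 12 rats was labelled for an Affymetrix array. The deposited table holds the authors' processed score for 31099 probe sets; the sources used here do not give its summarization or normalization. Scores ran from 5.57 to 15.2 with 0 missing values, and 3 probe sets had a range over 1. Probe sets were named from the platform annotation: 20826 had 1 symbol, 436 several and 9780 none, and 57 controls were left out. The probe set with the highest mean stood for a gene. No filter or further scaling was applied.

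The diet comparison used limma 3.58.1 (R 4.3.3; eBayes with an intensity trend, Benjamini-Hochberg adjustment over 31042 probe sets). Exact permutation used all 924 arrangements, and correlations 100000 permutations (scipy 1.17.1). The fit was tested on simulated data. Figures used matplotlib 3.10.9. Precision is limited by 6 arrays per diet.

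The members and lists were chosen with earlier results of these data known. Named genes were the 10 members, from each list the 2 with the largest absolute g and the 2 with the highest level, and the 3 genes most like each of 3 members; most marker lists are given as counts only. Alternatives were other normalizations, variance models, weights, filters, probe sets, a replicate block and each array left out.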

Additional observations from a re-analysis of the deposited data

Results flagged for a closer look

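Of 24 combinations of a member probe set and a diet, 1 held an animal well apart from the rest of its group; chance alone would give 1.2. Apoa4 stood at 2.08 SDs in sugar mix replicate 1, and the next sugar mix liver lay at 0.06 SDs.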

How the results depend on the processing

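Under every alternative run, 0 of the probe sets tested passed in limma, including those described here. These were quantile normalization, median centring, the lowest 30% left out, no intensity trend, robust variance and array weights. The others were 1 probe set per gene, the replicate block and each animal left out. The fit tested 21729 probe sets with the lowest 30% left out and 31042 in most others. With 1 probe set per gene it tested 14217, without the second probe sets of Apob and Apoe. Counts at an unadjusted p of 0.05 ran from 314 (median centring) to 1622. Of 205 alternative values of the member genes, 168 kept their sign and 3 were 0 within rounding. The lowest 30% left out, no intensity trend, robust variance, 1 probe set per gene and the replicate block cannot alter the diet difference. The sign was therefore fixed under these settings. Median centring reversed the sign of 5 of the 10 genes, and quantile normalization that of Apoa4. After median centring the moderated t became 0.71 for Apoa1, 0.66 for Apoa2, 0.66 for Apoa5, 0.70 for Apoc1 and 0.71 for Apoe. Of all genes, 92.9% then had a t above 0. The array medians spanned 0.000169, more than the SD of each of the 10 genes. After quantile normalization Apoa4 had t = -1.04, and the brighter probe sets of the other 9 genes were constant and gave no value. Of the 12 probe sets, 1 then had an unadjusted limma p of 0.05 or less, where 1531 of 31042 did. It was a second probe set of Apob or Apoe, since Apoa4 had an unadjusted limma p of 0.320. The smallest limma adjusted p of the 12 was 0.932. With 1 animal left out, t ran from -2.79 to -1.97 for Mttp, -1.53 to -0.54 for Apoa5, 0.25 to 0.60 for Apoc3, -0.95 to 0.54 for Apoa1, -0.89 to 0.15 for Apoa2, -0.31 to 0.95 for Apoa4, -0.26 to 0.64 for Apob, -0.67 to 0.16 for Apoc1, -0.23 to 0.032 for Apoe and -0.29 to 1.23 for Apom. The replicate numbers did not pair the animals (1 of 6 correlations of same-numbered animals over 0.1; 0 of 6 maple syrup animals matched best by their own number); with the replicate block t was -2.26 for Mttp, with an unadjusted limma p of 0.0671, so that 0 of the 12 probe sets were under 0.05, in place of 1. Of 45 pairs of genes, 28 passed after median centring, without Apoc1 and Apom (rho = 0.58, adjusted permutation p = 0.0737), and 3 on deviations from the diet means, in place of 2. With the probe set of widest SD 0 passed. Apoa5 and Apob then had rho = -0.025, while Apoc1 and Apom kept rho = 0.83 with an adjusted permutation p of 0.0684. Correlations after quantile normalization could not be computed.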
